A study of Mus musculus with 12 samples.

Results

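The TGF-beta and activin pathway list described here holds 10 genes of the 55401 in the count table. It was drawn up around the TGF-beta arm of Th17 differentiation: the ligands Tgfb1 and Tgfb3 and the activin subunit Inhba, the receptors Tgfbr1 and Tgfbr2, the signal transducer Smad3, the inhibitors Smad7, Ski and Skil, and the activin antagonist Fst. All 10 passed the filter on low counts and were tested. Fst was chosen by a measured value, its increase under Stattic against None. The rest were taken from the known pathway, though with earlier results of these data known. Every comparison of Fst that uses the Stattic or None libraries is therefore given as values with no test, which leaves Kira8+Stattic against Kira8.

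RNA was sequenced in 12 libraries of mouse Th17 cells, a class of helper T cell named after its cytokine IL-17. The groups were Kira8+Stattic (both inhibitors), Stattic, Kira8 and None (no inhibitor), with 3 libraries each and inhibitors applied for 4 h. All groups share a WT genotype, lymph nodes as the source and naive T cells as the start of differentiation. Kira8 blocks IRE1alpha, an endoplasmic reticulum stress sensor, and Stattic blocks STAT3, the transcription factor downstream of IL-6 and IL-23. The origin of the replicates (cultures or animals) is not stated, nor is any solvent given to None, so p-values reflect only the spread among these libraries, part or all of which may be technical.

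TGF-beta and activin are secreted dimers that bind a type II receptor, which then phosphorylates a type I receptor. The active receptor phosphorylates SMAD2 and SMAD3, which join SMAD4 and bind DNA. SMAD7, SKI and SKIL (SnoN) restrain the signal, and Smad7 and Skil are themselves induced by TGF-beta in many cells, while follistatin, the product of Fst, binds activin outside the cell. With IL-6, TGF-beta drives naive T cells into the Th17 state, and without IL-6 it favours regulatory T cells.

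Total counts ranged from 51.7 to 85.9 M (megacounts) in 10 libraries, and were 9.3 M in Stattic replicate 2 and 19.8 M in Kira8 replicate 2. This pair stood apart. Mitochondrial transcripts took 10.66% and 61.55% of their counts, against 3.38% to 5.22% in the 10, and their Spearman correlation across genes with the 10 was 0.528 to 0.57, against 0.893 to 0.978 among the 10. Values below are from the 10 libraries (n = 3 for Kira8+Stattic and None, n = 2 for Stattic and Kira8), with the 12-library result beside them. Levels are CPM, counts scaled to library size with TMM factors, and 3 counts correspond to 0.0387 to 0.0586 CPM, a floor that covers counting error only. The TMM factors of the 10 come from their own fit and those of the outlying pair from the 12-library fit. CPM of that pair are therefore not on exactly the same scale as the rest. Calls rest on edgeR's quasi-likelihood test, with p adjusted by Benjamini-Hochberg over 21239 genes and a threshold of 0.05, and log2 changes carry ± their standard error. Defining T cell markers (Cd3e, Cd3g, Cd4, Trac, Cd2) were above 0 in every one of the 10 and summed to 1010 to 1590 CPM, and Th17 markers to 1487 to 1509 CPM with Kira8+Stattic, 1507 to 1573 CPM with Stattic, 2183 to 2184 CPM with Kira8 and 2289 to 4469 CPM in None. With Stattic against None 5 of 8 Th17 markers were called lower and 1 higher, against 18.9% of all genes lower and 20.1% higher. The summed markers of other lymphocytes were lower in all inhibitor groups than in None. CD8 T and NK markers summed to 160 to 262 CPM with Kira8+Stattic, 487 to 592 CPM with Stattic, 145 to 159 CPM with Kira8 and 1040 to 1823 CPM in None, with Ncr1 at 0 in 9 of the 10 libraries. Gzmb alone held most of this sum in None (mean 1026 CPM) and with Kira8 (mean 84.8 CPM). With Stattic 3 of 7 tested were called lower than in None and 1 higher, against the same shares of all genes. B cell markers summed to 19.6 to 35.6 CPM with Kira8+Stattic, 16.9 to 26.7 CPM with Stattic, 36.0 to 41.8 CPM with Kira8 and 114 to 127 CPM in None. All 6 were called lower with Stattic than in None, against 18.9% of all genes. The part of these cells in the values below was not tested. In bulk RNA, fewer cells of a type and less RNA per cell cannot be told apart.

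The inhibitors Smad7 and Skil and both receptors were called higher with Stattic than with None, and Tgfb1 lower. Smad3 and Ski were not called in any comparison of the 10 libraries. Fst was chosen by its increase in this Stattic comparison, which is therefore not counted as a result. Under Stattic, 4 of the 9 members other than Fst were called higher and 1 lower than in None, where 39% of all genes were called (20.1% higher and 18.9% lower). Their median log2 change was 0.68, against 0.08 over all genes. Under Kira8+Stattic against None, 4 of 9 were called higher and 2 lower, with 40.8% of all genes called (20.8% higher and 20% lower) and medians of 0.59 for the members and 0.09 for all genes. Under Kira8 alone, 2 of 9 were called higher and 1 lower against None (19.3% of all genes called, 9.7% higher and 9.59% lower). The medians there were 0.18 for the members and 0 for all genes. Against Kira8, the combination had 6 of 10 higher and 1 lower (30.7% of all genes called, 14.7% higher and 16% lower), with medians of 0.79 and 0.12. The comparisons against None share the None libraries and are not independent of each other. Since the list was drawn up with earlier results of these data known, these shares and medians are a description.

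**Figure D1:**
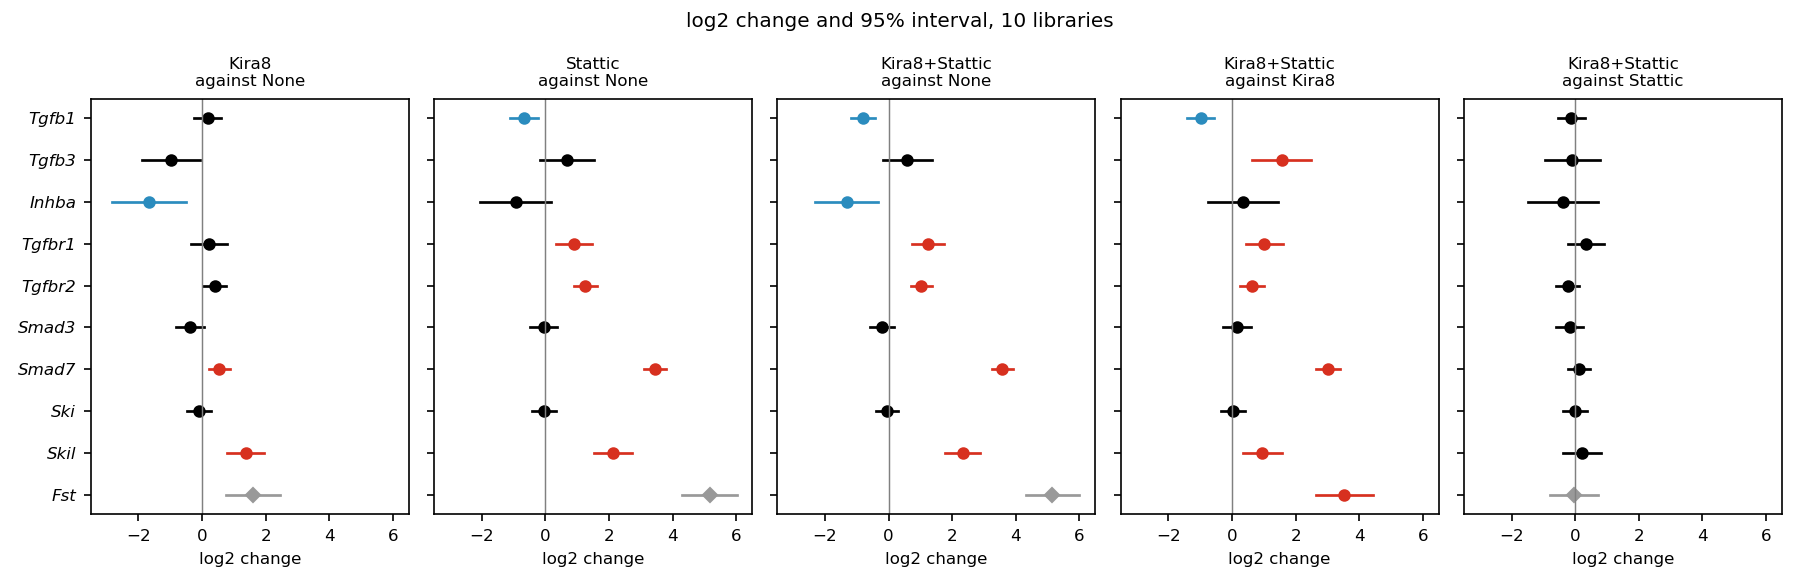
log2 change (horizontal axis, points) with its 95% interval (lines) of each member in 5 comparisons from the 10-library fit. Red points were called higher, blue points lower and black points not called. Grey diamonds mark the Fst values that have no test. The intervals of Smad7 and Skil lie right of 0 in all panels but the last, where every interval crosses 0.

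Under Stattic and under Kira8+Stattic, Smad7 had the largest change against None of the members tested. It encodes the inhibitory SMAD that blocks and degrades the type I receptor, and lies at chromosome 18, 75367529 to 75395935, plus strand (mm10; ENSMUSG00000025880). It stood at 248, 212 and 254 CPM with Kira8+Stattic, at 205 and 233 CPM with Stattic, at 29.4 and 28.8 CPM with Kira8, and at 22.1, 18.3 and 19.7 CPM in None. The Kira8+Stattic and Stattic libraries lay far above all others, and the Kira8 libraries lay above None without overlap. Smad7 rose 10.9-fold with Stattic against None (log2 3.45 ± 0.16, adjusted p = 2.12e-07) and 11.9-fold with the combination (3.57 ± 0.15, adjusted p = 7.95e-08). The combination stood 8.18-fold above Kira8 (3.03 ± 0.17, adjusted p = 3.46e-06).

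The Kira8 change of Smad7 was 1.45-fold (0.54 ± 0.15, adjusted p = 0.0268). That call was lost without Kira8 replicate 1 (adjusted p = 0.164), Kira8 replicate 3 (0.148), None replicate 2 (0.0684) or None replicate 3 (0.0592), and when counts were scaled by library size alone (0.0503). The outlying pair held 299 counts of Smad7 in Stattic replicate 2 (34.3 CPM) and 201 in Kira8 replicate 2 (40.7 CPM). Stattic replicate 2 thus lay below Kira8 replicate 2 and far below the other Stattic libraries. With all 12 libraries the combination was still called against None (3.55 ± 0.59, adjusted p = 0.0428), whereas Stattic against None (2.97 ± 0.58, adjusted p = 0.0633) and the combination against Kira8 (2.76 ± 0.57, adjusted p = 0.364) were not.

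Skil encodes SnoN, a corepressor that binds SMAD complexes and is degraded when the receptor fires. Located at chromosome 3, 31095058 to 31122577, plus strand (ENSMUSG00000027660), it stood at 652, 825 and 808 CPM with Kira8+Stattic, at 533 and 791 CPM with Stattic, at 357 and 429 CPM with Kira8, and at 105, 212 and 137 CPM in None. All inhibitor libraries lay above all None libraries, and Kira8 lay between None and the Stattic-treated groups. Skil rose 4.37-fold with Stattic (2.13 ± 0.27, adjusted p = 9.08e-05), 5.03-fold with Kira8+Stattic (2.33 ± 0.25, adjusted p = 2.30e-05) and 2.60-fold with Kira8 (1.38 ± 0.27, adjusted p = 0.00386), each against None.

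The Kira8 call of Skil against None was kept when each of the 10 libraries was left out in turn. Kira8+Stattic exceeded Kira8 by 0.95 ± 0.28 (adjusted p = 0.0218), a call lost without Kira8 replicate 1 (0.167), Kira8 replicate 3 (0.0799), Kira8+Stattic replicate 2 (0.0621) or Kira8+Stattic replicate 3 (0.061). With 12 libraries no Skil change was called (adjusted p = 0.341 for Stattic, 0.352 for Kira8+Stattic and 0.736 for Kira8 against None). Stattic replicate 2 held 261 counts of Skil (29.9 CPM) and Kira8 replicate 2 held 288 (58.4 CPM), both below every None library.

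Ski, the close relative of Skil and likewise a SMAD corepressor, was not called in any comparison. Its levels were 171, 191 and 189 CPM with Kira8+Stattic, 175 and 195 CPM with Stattic, 176 and 182 CPM with Kira8, and 191, 153 and 226 CPM in None. The groups overlapped throughout, and the 95% interval of the Stattic change was -0.42 to 0.34 on the log2 scale. Kira8 replicate 2 had 0 counts of Ski, where 3 counts correspond to 0.608 CPM, and with 12 libraries the Stattic change was -0.54 (adjusted p = 0.84).

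Smad3, the receptor-regulated SMAD that carries the TGF-beta and activin signal to DNA, was likewise not called. Its levels were 71.5, 66.7 and 83.1 CPM with Kira8+Stattic, 71.9 and 93.7 CPM with Stattic, 66.0 and 65.9 CPM with Kira8, and 66.1, 90.7 and 101 CPM in None. The Kira8 libraries lay just below all others, and the other groups overlapped. The Stattic change was -0.05 (95% interval -0.48 to 0.37) and the Kira8 change -0.38 ± 0.20 (adjusted p = 0.211). Without None replicate 1 the Kira8 change was -0.54 and was called (adjusted p = 0.0471). With 12 libraries it was -0.96 (adjusted p = 0.759), Kira8 replicate 2 having 4 counts of Smad3.

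**Figure D2:**
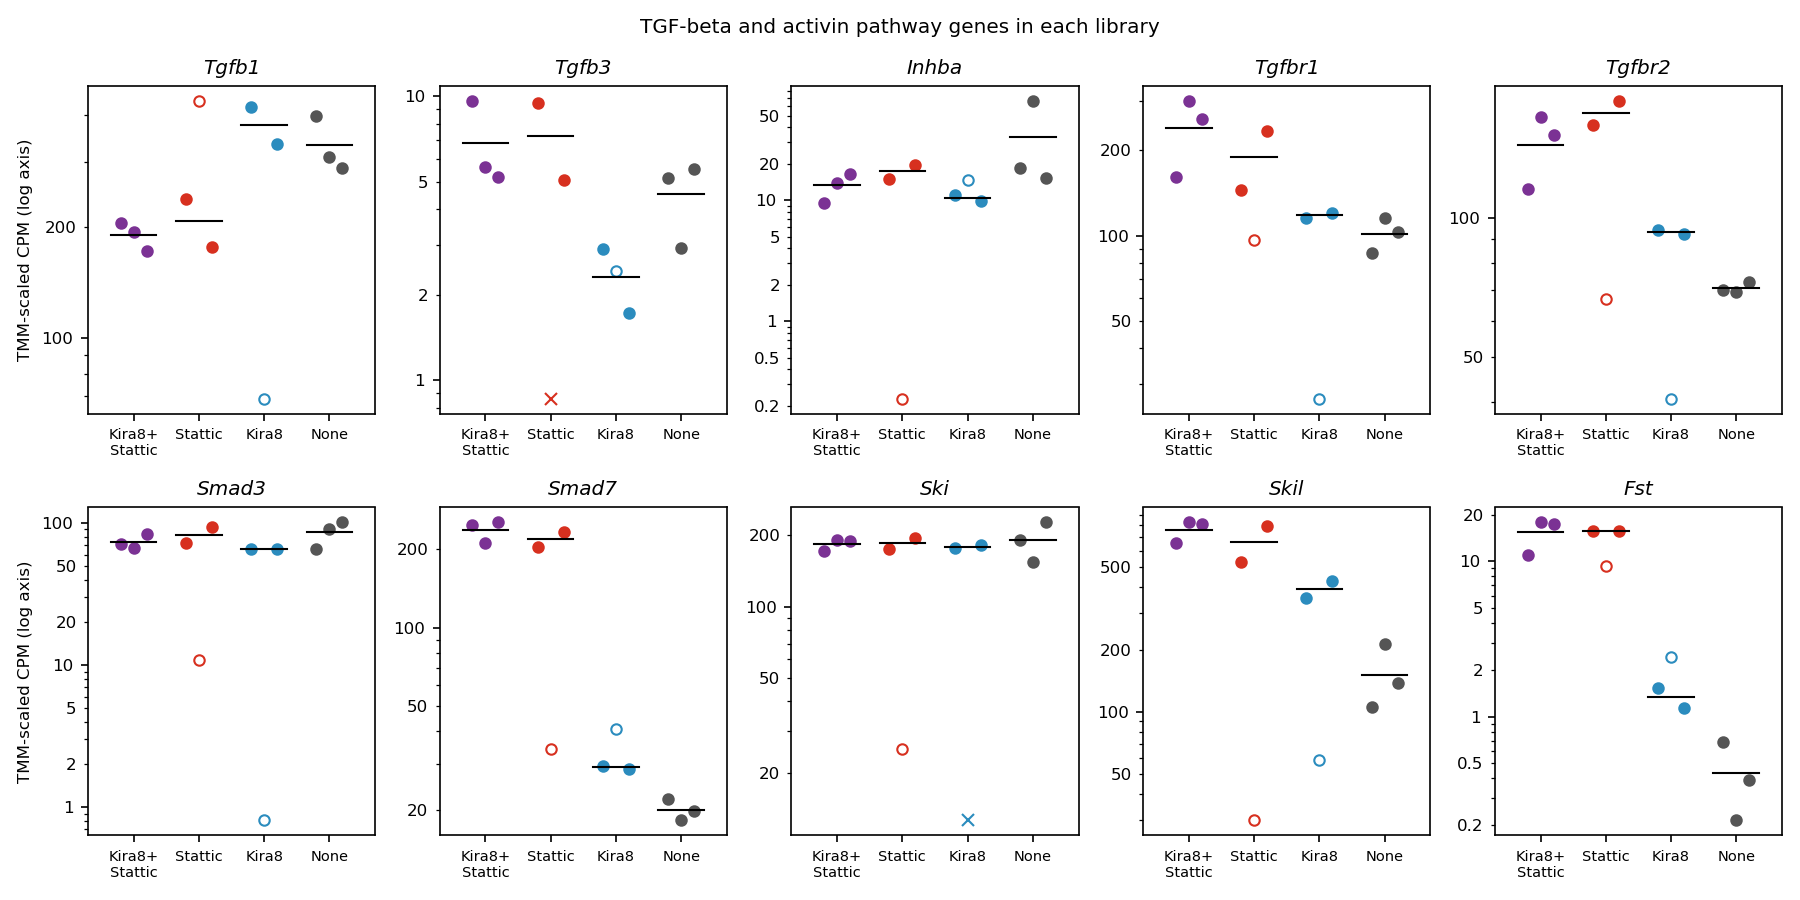
TMM-scaled CPM (log axes, which differ between panels) of the 10 members in each library. Filled points are the 10 libraries and bars their group means. Open points are Kira8 replicate 2 and Stattic replicate 2, and crosses at the lower edge mark an outlying library with 0 counts. The filled points of Smad7 and Fst separate the Stattic-treated groups from Kira8 and None, whereas the filled points of Ski overlap between all groups.

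In the 10 libraries both receptor genes were higher in the Stattic-treated groups than with Kira8 or in None. Tgfbr1 (chromosome 4, 47353222 to 47414931, plus strand; ENSMUSG00000007613) encodes the type I receptor kinase, and Tgfbr2 (chromosome 9, 116084293 to 116175360, minus strand; ENSMUSG00000032440) the type II receptor that binds TGF-beta first. Their promoter windows, from 250 bases before to 50 bases after a transcript start in RefSeq (GRCm38.p6, the build of mm10), are printed because both genes moved the same way. The window of Tgfb1, which moved the other way, is set beside them. All are written 5′ to 3′ on the gene's strand, and capitals mark a match to CAGAC, the SMAD box.
Tgfbr1, chr4:47352972-47353271, plus strand: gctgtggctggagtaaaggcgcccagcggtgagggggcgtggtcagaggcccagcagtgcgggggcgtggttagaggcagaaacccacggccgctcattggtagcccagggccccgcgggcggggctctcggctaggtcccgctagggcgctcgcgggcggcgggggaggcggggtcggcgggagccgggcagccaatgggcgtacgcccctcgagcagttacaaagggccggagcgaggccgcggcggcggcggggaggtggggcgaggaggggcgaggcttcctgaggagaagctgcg
Tgfbr2, chr9:116175314-116175613, minus strand: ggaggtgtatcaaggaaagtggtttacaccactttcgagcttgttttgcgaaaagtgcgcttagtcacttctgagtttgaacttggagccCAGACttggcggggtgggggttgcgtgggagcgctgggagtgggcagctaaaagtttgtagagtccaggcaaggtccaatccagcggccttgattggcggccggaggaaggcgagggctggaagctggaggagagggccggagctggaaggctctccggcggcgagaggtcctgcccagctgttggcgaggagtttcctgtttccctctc
Tgfb1, chr7:25686752-25687051, plus strand: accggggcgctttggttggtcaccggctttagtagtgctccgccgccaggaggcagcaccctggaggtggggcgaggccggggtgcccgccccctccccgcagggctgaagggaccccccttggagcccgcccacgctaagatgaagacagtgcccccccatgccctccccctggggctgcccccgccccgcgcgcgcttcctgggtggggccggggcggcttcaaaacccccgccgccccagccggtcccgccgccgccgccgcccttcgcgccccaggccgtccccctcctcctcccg

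The GC content of these windows was 74.7% for Tgfbr1, 59% for Tgfbr2 and 77% for Tgfb1. All 10 members were looked up, and windows were found for Tgfb1, Tgfbr1, Tgfbr2, Smad3, Ski and Inhba (6 members, and 7 windows since Tgfbr1 has a second start) and not for Tgfb3, Smad7, Skil and Fst. The search covered both strands for the cyclic AMP response element TGACGTCA (in 1.79% of 32851 windows of the same length), the AP-1 site TGANTCA (7.81%), CAGAC (49.6%), the palindromic SMAD element GTCTAGAC (0.213%), the heat shock element core GAANNTTC (7.86%) and the STAT element TTCNNNGAA (8.3%). No motif searched contains another. Of these, CAGAC alone was matched, from position 91 of the Tgfbr2 window and position 48 of the second Tgfbr1 window, and the other 5 motifs were in none of the 7. A match is a string of letters and not a shown binding site.

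Tgfbr1 stood at 161, 299 and 258 CPM with Kira8+Stattic, at 145 and 233 CPM with Stattic, at 116 and 121 CPM with Kira8, and at 86.7, 115 and 103 CPM in None. All Stattic-treated libraries lay above all Kira8 and None libraries. The change was 0.90 ± 0.26 with Stattic (1.86-fold, adjusted p = 0.0152) and 1.24 ± 0.24 with Kira8+Stattic (2.36-fold, adjusted p = 0.00124), both against None.

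For Tgfbr1 the Stattic call rested on Stattic replicate 3, without which the change was 0.52 (adjusted p = 0.234). Against Kira8 the combination was higher by 1.02 ± 0.27 (adjusted p = 0.0131), and this was lost without Kira8 replicate 1 (0.0934), Kira8 replicate 3 (0.0827) or Kira8+Stattic replicate 2 (0.0509). With 12 libraries the Stattic change was 0.67 (adjusted p = 0.479) and that of Kira8+Stattic against None 1.22 (0.393). Stattic replicate 2 held 843 counts of Tgfbr1 (96.6 CPM), below the other Stattic libraries, and Kira8 replicate 2 held 131 (26.6 CPM).

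Tgfbr2 stood at 115, 165 and 151 CPM with Kira8+Stattic, at 159 and 179 CPM with Stattic, at 93.9 and 92.1 CPM with Kira8, and at 69.9, 69.3 and 72.8 CPM in None. The groups did not overlap, apart from Stattic and Kira8+Stattic with each other. Tgfbr2 rose 2.39-fold with Stattic against None (1.25 ± 0.16, adjusted p = 0.000109) and 2.03-fold with Kira8+Stattic (1.02 ± 0.15, adjusted p = 0.000196).

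The Kira8 change of Tgfbr2 was 0.40 ± 0.16 and was not called (adjusted p = 0.117), although both Kira8 libraries lay above all of None. Kira8+Stattic was higher than Kira8 by 0.63 ± 0.17 (adjusted p = 0.0146), a call lost without Kira8 replicate 1 (0.0999), Kira8 replicate 3 (0.118) or Kira8+Stattic replicate 2 (0.0604). The 12-library changes of Tgfbr2 were 0.95 for Stattic (adjusted p = 0.243) and 1.01 for Kira8+Stattic (0.362), neither called. Stattic replicate 2 held 583 counts of Tgfbr2 (66.8 CPM), far below the other Stattic libraries, and Kira8 replicate 2 held 201 (40.7 CPM).

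Tgfb1, the TGF-beta isoform best known from lymphocytes, was the member that fell under Stattic. It lies at chromosome 7, 25687002 to 25705077, plus strand (ENSMUSG00000002603). It stood at 205, 194 and 172 CPM with Kira8+Stattic, at 238 and 177 CPM with Stattic, at 420 and 335 CPM with Kira8, and at 399, 310 and 288 CPM in None. All Stattic-treated libraries lay below all others, and Kira8 overlapped None. Kira8+Stattic was 1.75-fold below None (-0.80 ± 0.18, adjusted p = 0.00305) and 1.99-fold below Kira8 (-0.99 ± 0.19, adjusted p = 0.00244).

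Stattic alone was 1.60-fold below None for Tgfb1 (-0.68 ± 0.20, adjusted p = 0.0175), and without Stattic replicate 3 this change was -0.48 and not called (adjusted p = 0.177). Stattic replicate 2 went against this fall, with 3818 counts of Tgfb1 (438 CPM), the highest level of the 12 libraries. With 12 libraries the Stattic change was -0.14 (adjusted p = 0.913) and that of Kira8+Stattic against None -0.83 (0.672).

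Tgfb3, a ligand that Th17 cells can make themselves, was low in every group. It stood at 9.64, 5.65 and 5.19 CPM with Kira8+Stattic, at 9.44 and 5.07 CPM with Stattic, at 2.90 and 1.72 CPM with Kira8, and at 5.15, 2.92 and 5.54 CPM in None. The Kira8 libraries were the lowest, and the Stattic-treated groups overlapped None. The combination was 2.95-fold above Kira8 (1.56 ± 0.42, adjusted p = 0.0152), which without Kira8 replicate 3 was 1.23 and not called (adjusted p = 0.153). With 12 libraries it was 1.46 (adjusted p = 0.624), with 0 counts in Stattic replicate 2 and 12 in Kira8 replicate 2. No Tgfb3 change against None was called in the main fit. With the replicate number as a block, edgeR called it lower with Kira8 (-1.20, adjusted p = 0.0212). Tgfb3 (chromosome 12, 86056745 to 86079041, minus strand) shares 163 and 257 exonic bases with the opposite-strand models Gm37804 and Gm48008, which had at most 5 and 11 counts in any of the 10 libraries.

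Inhba encodes the beta A subunit, whose dimer is activin A, a ligand that is known to act with TGF-beta in Th17 differentiation. It stood at 9.51, 14.0 and 16.3 CPM with Kira8+Stattic, at 15.1 and 19.6 CPM with Stattic, at 11.0 and 9.77 CPM with Kira8, and at 18.3, 66.1 and 15.2 CPM in None. None replicate 2 was far above all other libraries, and without it None and the Stattic-treated groups overlapped. Inhba was called lower with Kira8 (-1.67 ± 0.53, adjusted p = 0.0452) and with Kira8+Stattic (-1.32 ± 0.45, adjusted p = 0.0349), both against None.

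Without None replicate 2 the Inhba changes were -0.69 with Kira8 (adjusted p = 0.106) and -0.33 with Kira8+Stattic (adjusted p = 0.312). The Kira8 call was lost without any of 7 of the 10 libraries (adjusted p 0.0563 to 0.231), and that of the combination also without Kira8+Stattic replicate 1 (0.0985), 2 (0.0808) or 3 (0.0558). The summed Th17 markers were likewise highest in None replicate 2, at 4469 CPM, against 1487 to 2495 CPM in the other 9 libraries, and CD8 T and NK markers at 1823 CPM, against 145 to 1276 CPM. The part of these in the Inhba values was not tested. In Stattic replicate 2 there were 2 counts of Inhba (0.229 CPM) and in Kira8 replicate 2 there were 73 (14.8 CPM). With 12 libraries the Inhba changes were -1.40 with Kira8 (adjusted p = 0.603) and -1.33 with Kira8+Stattic (0.723). DESeq2 did not call the change with Kira8+Stattic in the 10 libraries (adjusted p = 0.0573).

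Fst encodes follistatin, which binds activin and keeps it from its receptor. It lies at chromosome 13, 114452290 to 114458951, minus strand (ENSMUSG00000021765). Fst stood at 11.0, 17.8 and 17.4 CPM with Kira8+Stattic, at 15.6 and 15.8 CPM with Stattic, at 1.53 and 1.14 CPM with Kira8, and at 0.691, 0.215 and 0.393 CPM in None. The None values rest on 48, 14 and 26 counts. The levels formed 3 tiers that did not overlap: Stattic-treated, Kira8 and None. Over None, Fst was 35.9-fold higher with Stattic (5.17 ± 0.40) and 35.3-fold higher with Kira8+Stattic (5.14 ± 0.38), and with Kira8 3.05-fold higher (1.61 ± 0.39), as a description.

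Kira8+Stattic against Kira8 shares no library with the comparison that chose Fst, and was tested. Fst was 11.5-fold higher with Kira8+Stattic than with Kira8 (3.53 ± 0.41, adjusted p = 0.000107). With 12 libraries it was not called (3.10, adjusted p = 0.374). Stattic replicate 2 had 81 counts of Fst (9.28 CPM) and Kira8 replicate 2 had 12 (2.43 CPM). In the 12 libraries the changes against None were 4.98 with Stattic, 5.12 with Kira8+Stattic and 2.02 with Kira8.

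Fibroblasts and stroma make follistatin in many tissues. The sum of 7 of their marker genes was 6.68 to 7.59 CPM with Kira8+Stattic, 5.80 to 7.44 CPM with Stattic, 1.53 to 1.62 CPM with Kira8 and 1.85 to 3.55 CPM in None, with at most 2 of the 7 at 0 in any library. In these 10 libraries the sum was higher in the Stattic-treated groups than in None, and lower with Kira8. The outlying pair had far higher sums, 117 CPM in Kira8 replicate 2 and 107 CPM in Stattic replicate 2. Of 5 markers tested, 1 was called with Stattic against None (higher) and 4 were not, where 39% of all genes were called (20.1% higher). Col1a1 stood at 5.06 to 6.29 CPM with Kira8+Stattic, 3.24 to 5.88 CPM with Stattic, 0.384 to 0.439 CPM with Kira8 and 0.363 to 1.06 CPM in None, while Col3a1 and Dcn were at 0 in both Stattic libraries. The part of such cells in the Fst level was not tested. An antisense model, Gm47040, shares 115 exonic bases with Fst and had 4 counts in Stattic replicate 3 and 0 in the other 11 libraries.

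The genes whose log2 CPM followed that of Fst most closely over the 10 libraries, among 9657 genes with a mean of at least 5 CPM, were Gadd45a, a stress-induced growth arrest gene (Pearson r = 0.997), Tcp11l2 (0.995), Pdcd4, an inhibitor of translation (0.995), Saraf, which restrains store-operated calcium entry (0.994), and Tomm34 (0.992). All points share the same libraries and groups, so the coefficients describe a common order. Gadd45a, for example, stood at 55.3, 55.9 and 79.1 CPM with Kira8+Stattic, at 64.2 and 63.4 CPM with Stattic, at 8.41 and 7.61 CPM with Kira8, and at 3.89, 1.82 and 2.83 CPM in None.

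The inhibitors changed the order of the members' levels. Per kilobase of exon, None had the ligand Tgfb1 first at 65.9 CPM per kb ± 11.7 (SD, n = 3), ahead of Ski at 34.2 ± 6.53. Skil, Tgfbr1 and Smad3 followed at 15.6, 15.5 and 15.5 CPM per kb and did not differ beyond their spread. Tgfbr2 had 8.63, Inhba 5.19, Smad7 4.43, Tgfb3 1.34 and Fst 0.0944 CPM per kb, with Inhba overlapping both Tgfbr2 and Smad7. With Kira8+Stattic, Skil was first at 78.6 CPM per kb ± 9.82 and Smad7 next at 52.6 ± 4.99. Tgfb1, Tgfbr1 and Ski overlapped there at 37.7, 36.6 and 33.0 CPM per kb, and Fst at 3.36 stood above Inhba at 2.08 in the means while their libraries overlapped. Stattic gave the same first 3, Skil at 68.3, Smad7 at 48.5 and Tgfb1 at 41.1 CPM per kb, with overlap between the neighbours Smad7 and Tgfb1. Kira8 kept Tgfb1 first at 74.9 CPM per kb, with Skil second at 40.5.

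**Figure D3:**
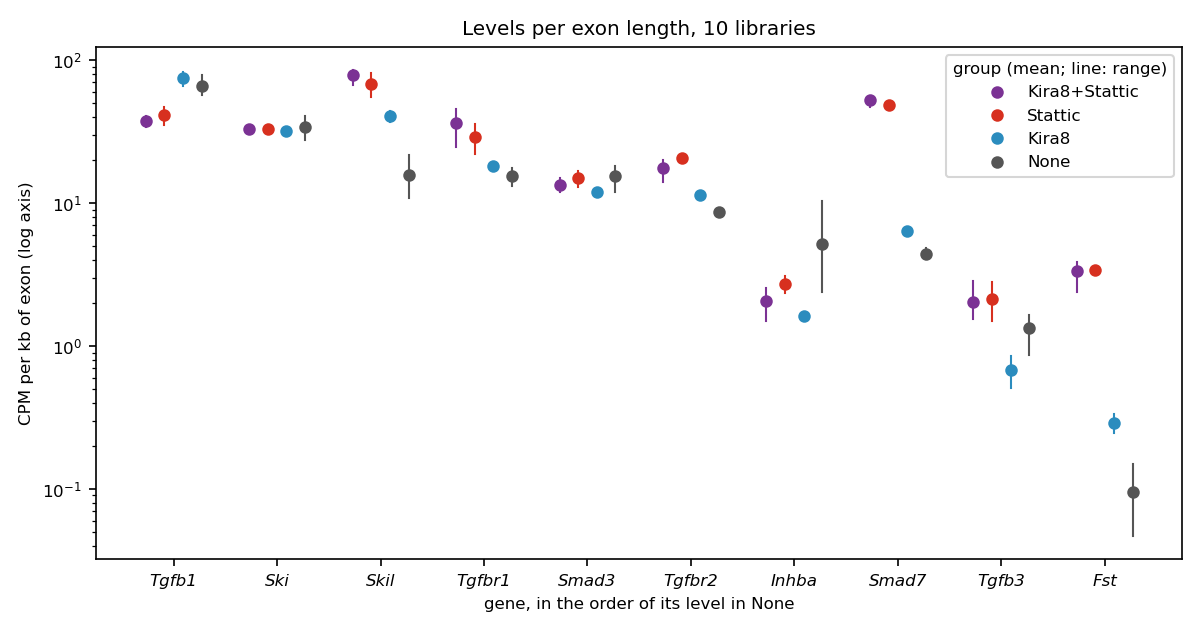
Mean level of each member in CPM per kilobase of exon (vertical log axis) by group, with lines for the range over libraries and genes in the order of their level in None. Skil and Smad7 lie above Tgfb1 in the Stattic-treated groups and below it with Kira8 and in None.

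Between Kira8+Stattic and Stattic 0 of the 9 members other than Fst were called, 0 had an unadjusted p under 0.05 and 0 were called by DESeq2, while 0.0141% of all genes (3) were called. The data bound these differences: the 95% intervals were -0.21 to 0.45 for Smad7, -0.39 to 0.80 for Skil, -0.59 to 0.13 for Tgfbr2 and -0.55 to 0.30 for Tgfb1 on the log2 scale, and, with no test, -0.78 to 0.73 for Fst. The interval was -0.23 to 0.91 for Tgfbr1 and -0.95 to 0.77 for Tgfb3, and it was widest for Inhba, from -1.47 to 0.70.

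The interaction asks whether the Kira8 change with Stattic present differs from that without it. Of the 9 members tested, 0 were called by edgeR, where 8.52% of all genes were. Skil came nearest, at -1.17 ± 0.38 (adjusted p = 0.0787). Its Kira8 change was 0.20 ± 0.27 with Stattic present and 1.38 ± 0.27 without it. DESeq2 called this interaction of Skil (adjusted p = 0.0186), as did edgeR without None replicate 2 (-1.50, adjusted p = 0.017), and with 12 libraries it was -0.15 (adjusted p = 0.976). Tgfbr2 had an interaction of -0.63 ± 0.23 (adjusted p = 0.12). Skil and Tgfbr2 were the members tested with an unadjusted p under 0.05 (0.00926 and 0.0192). For Fst the interaction was -1.64 ± 0.52, given without a test.

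Further genes of the pathway were followed in 7 lists that hold 79 different genes, 68 of which passed the filter. With Stattic against None 22 were called higher, 8 lower and 38 were not called (39% of all genes called). With Kira8+Stattic these counts were 22, 9 and 37 (40.8% of all genes called), with Kira8 they were 9, 6 and 53 (19.3%), and with Kira8+Stattic against Kira8 they were 15, 11 and 42 (30.7%). The median changes in those comparisons were 0.28, 0.22, 0.16 and 0.08, against 0.08, 0.09, 0 and 0.12 over all genes. Between Kira8+Stattic and Stattic 0 were called (5 with an unadjusted p under 0.05 and 0 by DESeq2), against 0.0141% of all genes. With 12 libraries 0 of the further genes were called in any comparison, but at most 65 of all 20993 genes were called in any of them.

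Of 18 other inhibitors and modulators, 10 were higher and 1 lower under Stattic, and 10 higher and 2 lower under Kira8+Stattic, both against None. Of all genes 20.1% were higher and 18.9% lower under Stattic, and 20.8% and 20% under Kira8+Stattic. Bambi, a decoy receptor without a kinase domain, stood at 10.4, 12.1 and 13.7 CPM with Kira8+Stattic, at 11.1 and 12.4 CPM with Stattic, at 0.96 and 1.02 CPM with Kira8, and at 1.21, 1.12 and 0.62 CPM in None. It rose 11.9-fold with Stattic against None (3.58 ± 0.29, adjusted p = 4.85e-06) and 12.2-fold with Kira8+Stattic against Kira8 (3.60 ± 0.33, adjusted p = 2.49e-05), with no overlap. Kira8 replicate 2, however, had 75 counts of Bambi (15.2 CPM), and with 12 libraries Kira8+Stattic against Kira8 gave 0.91.

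Tgif1, a SMAD corepressor, rose under either inhibitor, 5.67-fold with Kira8 (2.50 ± 0.20, adjusted p = 3.59e-05) and 4.04-fold with Stattic (2.02 ± 0.20, adjusted p = 1.72e-05). Its levels were 251, 228 and 239 CPM with Kira8+Stattic, 200 and 233 CPM with Stattic, 297 and 310 CPM with Kira8, and 48.2, 70.4 and 41.9 CPM in None. Wwp1, a ubiquitin ligase that works with SMAD7, rose 2.92-fold with Stattic (1.55 ± 0.15, adjusted p = 1.62e-05) and 1.74-fold with Kira8 (0.80 ± 0.15, adjusted p = 0.00352). Zeb1, a repressor that takes part in TGF-beta responses, rose 3.31-fold with Kira8 (1.72 ± 0.22, adjusted p = 0.000354).

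Fstl3, a relative of follistatin that also binds activin, was highest in the Stattic-treated groups, at 1.57, 1.65 and 1.69 CPM with Kira8+Stattic and 3.44 and 2.68 CPM with Stattic. It had 0.0326 and 0.134 CPM with Kira8 and 0.532, 0.492 and 0.423 CPM in None. The Kira8 libraries were thus near the level of 3 counts. Kira8+Stattic exceeded Kira8 by 4.27 ± 0.59 (adjusted p = 0.000297), or by 3.59 without Kira8 replicate 1 and 5.56 without Kira8 replicate 3. Fstl3 fell with Kira8 against None (-2.52 ± 0.57, adjusted p = 0.00857).

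Other receptors had 4 of 10 tested genes higher and 0 lower with Stattic, where 20.1% of all genes were higher and 18.9% lower. Acvr2a, the type II receptor for activin, rose 3.98-fold (1.99 ± 0.16, adjusted p = 4.98e-06), with 82.4 and 85.2 CPM with Stattic against 17.1, 22.2 and 23.8 CPM in None. Acvrl1, a type I receptor best known from endothelium, rose 6.09-fold (2.61 ± 0.38, adjusted p = 0.000252), and Bmpr2, the type II receptor for bone morphogenetic proteins, 2.06-fold (1.05 ± 0.19, adjusted p = 0.00106). Endothelial markers summed to 41.1 to 56.9 CPM with Stattic and 43.6 to 77.3 CPM in None. Pecam1 held most of this sum in None (mean 64.5 CPM), with Cdh5, Kdr, Tek and Vwf at means of 0.0576 to 0.218 CPM. Of the 5, 3 passed the filter and 0 were called with Stattic against None, where 39% of all genes were called. The part of endothelial cells in the Acvrl1 values was not tested. With Kira8 against None Acvr2a was called higher (0.79 ± 0.16, adjusted p = 0.0053), a call lost without Kira8 replicate 1 (0.0594), and Eng, a co-receptor, lower (-1.26 ± 0.40, adjusted p = 0.0465), a call lost without any of 8 of the 10 libraries (0.0517 to 0.344).

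Other SMADs had 1 gene higher and 1 lower of 5 tested with Stattic, against 39% of all genes called. Smad5, which carries signals of bone morphogenetic proteins, fell 3.31-fold (-1.73 ± 0.23, adjusted p = 0.000124), with 17.1 and 14.3 CPM with Stattic against 35.7, 56.2 and 63.7 CPM in None. Smad5 stood at 60.7 and 60.6 CPM with Kira8. Smad4, the shared partner of the receptor-regulated SMADs, was called higher with Kira8 (0.71 ± 0.16, adjusted p = 0.00774), which was lost without Kira8 replicate 1 (0.0515) or replicate 3 (0.0929). Smad6, the inhibitory SMAD of the bone morphogenetic protein branch, was called higher on 0.762 and 0.289 CPM with Stattic against 0, 0 and 8 counts in the None libraries, a call lost without any of 9 of the 10 libraries (adjusted p 0.0539 to 0.222).

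In latency and activation, 3 of 9 were higher and 1 lower with Stattic, against 39% of all genes called. Thbs1, thrombospondin 1, which can activate latent TGF-beta, rose 7.57-fold (2.92 ± 0.39, adjusted p = 0.000123), with 36.4 and 57.7 CPM with Stattic against 3.28, 6.56 and 8.80 CPM in None. Nrros, which holds latent TGF-beta on myeloid cells, fell 2.96-fold with Stattic (-1.57 ± 0.23, adjusted p = 0.00027) and 2.64-fold with Kira8 (-1.40 ± 0.23, adjusted p = 0.00152). Myeloid markers summed to 29.6 to 43.1 CPM with Stattic, 58.3 to 59.6 CPM with Kira8 and 24.2 to 41.0 CPM in None. B cell markers, as given above, were lower in both of these groups than in None, and the part of either cell type in the Nrros values was not tested.

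Of the other ligands 0 were called higher and 2 lower of 9 with Stattic, against 39% of all genes called. Tgfb2 had 0 counts in both Stattic libraries of the 10 and 26, 49 and 10 counts in None, and was thus at least 7.32-fold lower, taking 3 counts per Stattic library as the floor. Stattic replicate 2 went against this with 443 counts of Tgfb2. Inha, the inhibin alpha subunit, had 0.137 and 0.0771 CPM with Stattic against 1.01, 0.723 and 0.499 CPM in None (-2.77 ± 0.75, adjusted p = 0.0117), a call lost without Stattic replicate 3 (0.0876).

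Among genes known to respond to TGF-beta, 6 of 15 were higher and 2 lower with Stattic, against 39% of all genes called, and 2 were higher and 2 lower with Kira8, against 19.3%. Ldlrad4, which restrains SMAD activation, rose 4.07-fold with Stattic (2.03 ± 0.21, adjusted p = 2.51e-05), and Cdkn1a, the cell cycle inhibitor p21, 3.22-fold (1.69 ± 0.20, adjusted p = 5.26e-05). Id1 and Id3 are inhibitors of helix-loop-helix factors. Id3 stood at 32.5, 33.6 and 46.3 CPM with Kira8+Stattic, at 37.3 and 35.5 CPM with Stattic, at 4.67 and 3.74 CPM with Kira8, and at 20.2, 12.8 and 10.8 CPM in None. It fell 3.47-fold with Kira8 against None (-1.79 ± 0.28, adjusted p = 0.0011) and was 8.90-fold higher with Kira8+Stattic than with Kira8 (3.15 ± 0.30, adjusted p = 2.98e-05).

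Id1 was 13.2-fold higher with Kira8+Stattic than with Kira8 (3.72 ± 0.48, adjusted p = 0.000209), with 10.2, 9.17 and 15.1 CPM with Kira8+Stattic against 1.25 and 0.484 CPM with Kira8. Without Kira8 replicate 1 that change was 4.56. Foxp3, the regulatory T cell factor that TGF-beta induces in naive T cells, was 3.28-fold lower with Kira8+Stattic than with Kira8 (-1.71 ± 0.26, adjusted p = 0.000497), with 16.5, 12.5 and 9.04 CPM with Kira8+Stattic, against 43.6 and 39.5 CPM with Kira8. The 5 regulatory T cell markers, Foxp3 included, summed to 1749 to 1962 CPM with Kira8+Stattic and 3037 to 3450 CPM with Kira8. Of the 5, 3 were called lower and 2 not called, against 30.7% of all genes called. Il2ra carried most of the difference, with means of 329 CPM with Kira8+Stattic and 1912 CPM with Kira8. Mean Ctla4 (1426 against 1229 CPM) and Lrrc32 (53.5 against 39.9 CPM) were higher with Kira8+Stattic and not called. The part of regulatory T cells was not tested.

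The TAK1 branch, an arm of the pathway that needs no SMAD, had 4 of 5 genes lower with Kira8+Stattic than with Kira8, against 16% of all genes lower. Traf6, the ubiquitin ligase that starts it, was 1.91-fold lower (-0.93 ± 0.19, adjusted p = 0.00326), with 114, 139 and 125 CPM with Kira8+Stattic, against 232 and 248 CPM with Kira8. Tab1 and Tab2, adaptors of the TAK1 kinase, were lower by -1.14 ± 0.30 (adjusted p = 0.0137) and -0.54 ± 0.17 (adjusted p = 0.0291), with both calls lost without either Kira8 library (0.0665 to 0.184). The Tab1 call was also lost without Kira8+Stattic replicate 2 (0.055) or 3 (0.054), and that of Tab2 without any of the 3 Kira8+Stattic libraries (0.0671 to 0.0686).

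**Figure D4:**
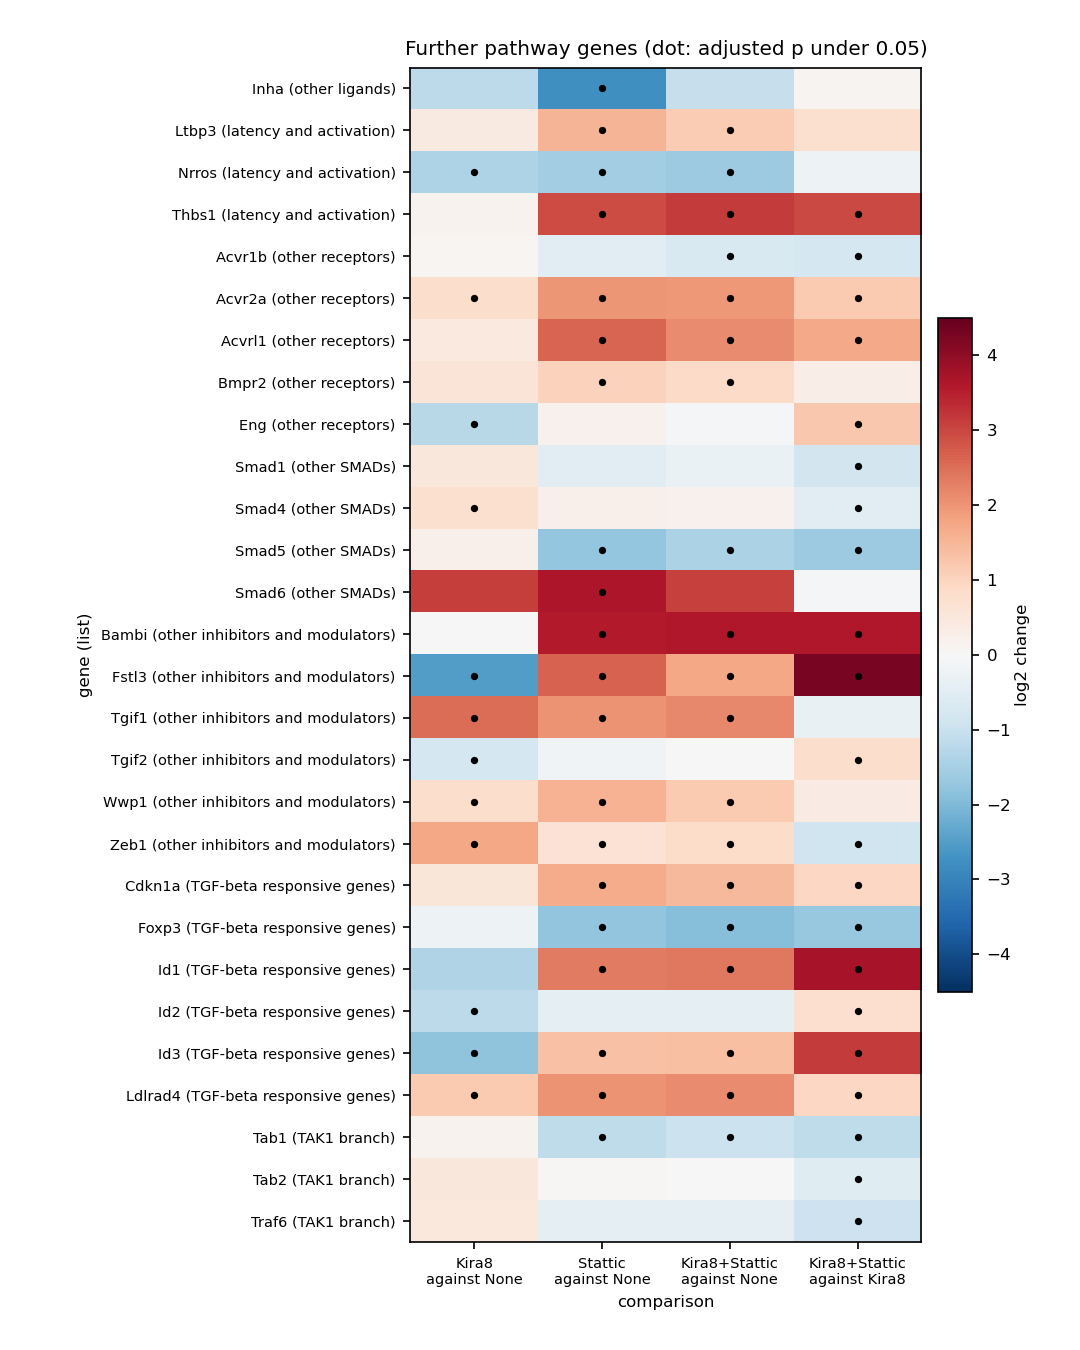
log2 change (colour) of the further pathway genes named by rule, with the list of each in brackets, in 4 comparisons of the 10 libraries. Dots mark an adjusted p under 0.05. Id1, Id3 and Fstl3 are redder in Kira8+Stattic against Kira8 than in the other columns, and Tgif1 and Zeb1 are reddest in Kira8 against None.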

How the data were processed

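The authors deposited raw counts of reads for 55401 Ensembl genes in 12 libraries of mouse Th17 cells, made from total RNA that had passed an integrity check, per the labels' protocols. The build was mm10, per the submitters' processing notes. Aligner, counter, annotation and strand setting: not given in the sources used here. Overlapping genes therefore have uncertain counts. Groups and replicate numbers come from the sample titles. Of the gene identifiers, 55141 matched a symbol. Symbols, positions and exon lengths come from the GENCODE annotation of mm10, and promoter windows from RefSeq.

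In R 4.3.3, counts were filtered with edgeR 4.0.16 (filterByExpr), scaled by TMM and tested by its quasi-likelihood test in a single fit of the 4 groups, with Benjamini-Hochberg adjustment over all 21239 genes. Kira8 replicate 2 and Stattic replicate 2 were left out of this fit and put back in an alternative. The common dispersion was 0.143 for 10 libraries and 1.01 for 12. Other alternatives were DESeq2 1.42.0, no filter, library size alone, RLE size factors, the replicate number as a block, and leaving out each library. The test was tried on simulated counts. Replicates within a group differed beyond sampling noise, and none were merged.

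The members, lists and tests were chosen with earlier results of these data known. All members are named, and of each further list up to 3 called genes with the smallest adjusted p in each comparison against None and in Kira8+Stattic against Kira8. For Fst the 5 most correlated genes are named.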

Additional observations from a re-analysis of the deposited data

Results flagged for a closer look

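The difference between the Kira8 changes with and without Stattic (the interaction) was called in edgeR's 10-library fit for 9 of the 68 further pathway genes tested, against 8.52% of all genes. It was negative for Tgif1 (-2.36, adjusted p = 0.00131), Zeb1 (-1.54, adjusted p = 0.0123), Wwp1 (-1.17, adjusted p = 0.0084), Ldlrad4 (-1.09, adjusted p = 0.0438) and Acvr2a (-0.83, adjusted p = 0.0446). It was positive for Id3 (1.84, adjusted p = 0.0131), Nrros (1.35, adjusted p = 0.0236), Id2 (1.14, adjusted p = 0.0265) and Tgif2 (0.97, adjusted p = 0.0412). With 12 libraries none of these was called, and 0 of all 20993 genes were. The Kira8 and Stattic groups hold 2 libraries each in this comparison.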

How the results depend on the processing

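Putting back Kira8 replicate 2 and Stattic replicate 2 removed most calls. With 12 libraries (20993 genes tested) edgeR called 0 genes for Kira8 against None, 65 for Stattic against None, 57 for Kira8+Stattic against None and 0 for Kira8+Stattic against Kira8, Kira8+Stattic against Stattic and the interaction. At an unadjusted p under 0.05 there were 2689 for Kira8 against None, 2536, 1050 and 3542 for those last 3. Some values changed sign: Tgfb1 -0.27 and Tgfbr1 -0.20 for Kira8 against None, Tgfb2 5.49 for Stattic against None, Smad4 0.0577 for Kira8+Stattic against Kira8, and, for Kira8+Stattic against Stattic, Tgfb3 0.49, Tgfbr2 0.0589, Smad3 0.31, Ski 0.47, Fst 0.14 and Inhba 0.18. DESeq2 called 51 genes for Kira8+Stattic against Stattic and 3179 for the interaction, and no filter gave 5 for Kira8+Stattic against Stattic. DESeq2 ended the call of Inhba for Kira8+Stattic against None (adjusted p = 0.0573) and library size alone that of Smad7 for Kira8 against None (0.0503). Library size alone moved the median gene by -0.16, -0.15 and -0.12 for Stattic against None, Kira8+Stattic against None and Kira8+Stattic against Kira8, and the share of called genes that were higher to 42.5%, 42.28% and 38.21%, against 51.56%, 51.01% and 47.84% with TMM. It gave Ski -0.0901 for Kira8+Stattic against Kira8, and no filter gave Ski 5e-04 for Kira8+Stattic against Stattic. Each cause was not tested.

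Leaving out each library in turn gave 1642 to 4118 genes for Kira8 against None, 5534 to 8649 for Stattic against None, 6937 to 9091 for Kira8+Stattic against None, 3270 to 7457 for Kira8+Stattic against Kira8, 1 to 15 for Kira8+Stattic against Stattic and 498 to 2066 for the interaction. A group left with 1 library was assumed to vary like the others. Changes that crossed 0 were Ski -0.22 to 0.0572 for Kira8 against None, Smad3 -0.26 to 0.12, Ski -0.17 to 0.10 and Inhba -1.28 to 0.0544 for Stattic against None, and Ski -0.18 to 0.0948 for Kira8+Stattic against None. For Kira8+Stattic against Stattic they were Tgfb1 -0.32 to 0.11, Tgfb3 -0.47 to 0.43, Smad3 -0.34 to 0.0371, Ski -0.0784 to 0.0702, Skil -0.05 to 0.52 and Fst -0.14 to 0.18, and for the interaction Tgfbr1 -0.18 to 0.50 and Ski -0.0669 to 0.21. None of these was called in the 10 libraries.

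The replicate numbers were not shown to pair the libraries: the correlations of deviations between None and Kira8+Stattic libraries of the same number were 0.218, 0.109 and 0.06, and None replicate 3 did not correlate best with its own number. With the replicate number as a block, edgeR called 4423 genes for Kira8 against None, 8062 for Stattic against None, 8947 for Kira8+Stattic against None, 6660 for Kira8+Stattic against Kira8, 4 for Kira8+Stattic against Stattic and 1784 for the interaction. Under the block Tgfb3 was called lower for Kira8 against None (-1.20, adjusted p = 0.0212), Skil was called for the interaction (-1.54, adjusted p = 0.0103), and Inhba was not called for Kira8 against None (-1.02, adjusted p = 0.112). The signs of Tgfb3 (0.13), Ski (0.0509) and Fst (0.0679) for Kira8+Stattic against Stattic and of Tgfbr1 (-0.18) for the interaction turned. Depth limits Fst in None (14 to 48 counts), Fstl3 with Kira8 and Smad6.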
